A study of Homo sapiens with 2 samples.

Results

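The genes of cholesterol synthesis and of the handling of cholesterol taken up by cells were followed in single cells of HT1080. This is an established human fibrosarcoma line (genotype wildtype), kept here in collagen invasion cultures for 72 h. Invading cells were not told apart from cells still in the spheroid. The set holds 28 genes, given by symbol and found among the 36601 genes listed in both libraries, and the rule uses the symbols alone. It holds 19 synthesis enzymes of the route from acetyl-CoA to cholesterol, 5 regulators of that route and 4 genes of sterol transport and export. GGPS1, which leads into a side branch, is counted among the 19 enzymes. Spheroids of 2000 cells were placed in collagen gels of 500 µl, about 50 to a sample, and were left untreated (control, 1 library) or were kept in medium with 2 µg/ml of 4B4, an antibody that inhibits β1 integrin (4B4, 1 library). β1 integrin is the shared subunit of the main collagen receptors. The control label names no other antibody, the line is the same in both samples, and effects of treatment and of library cannot be told apart. With 1 library per group no difference below has a replicate check, and no test or p-value was computed. The comparison asks how transcript levels differ when β1 integrin is blocked during the invasion culture.

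Cholesterol is built from acetyl-CoA by way of mevalonate, which is turned into isoprenoid diphosphates, then into squalene, and then through lanosterol into cholesterol. The isoprenoid branch also supplies the lipid anchors of small GTPases. When the membranes of the endoplasmic reticulum are short of sterol, SCAP carries the SREBP transcription factors to the Golgi, where they are cut and released to switch on the enzymes of the route. INSIG proteins hold SCAP back when sterol is plentiful. Cholesterol taken up in lipoproteins leaves the lysosome through NPC2 and NPC1, and surplus cholesterol is exported by ABCA1.

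Cells were barcodes with 1000 or more detected genes and no more than 20% of counts from mitochondrial genes, which gave 3402 control cells with 127218114 unique molecular identifiers (UMIs) and 1385 4B4 cells with 116451080. Median depth per cell was 32914 UMIs for control and 68556 UMIs for 4B4 cells, and median mitochondrial shares were 9.16% and 7.63%. For each gene the UMIs of all kept cells were added up and are given per 1000000 UMIs of that library (UPM), called its level. A gene with 5 UPM or more in at least 1 of the groups compared is called measured. It is called higher or lower where the ratio reaches 1.5 in that direction and its counting interval does not include 1. All intervals are exact 95% intervals and cover counting error only. Of 7 genes typical of HT1080 and other mesenchymal tumour cells 6 were measured, with summed levels of 6152 UPM for control and 5798 UPM for 4B4 cells. Epithelial markers summed to 2.45 and 2.00 UPM, with KRT5 at 0 in both, and normal fibroblast markers to 5.13 and 5.95 UPM. Immune markers summed to 27.9 and 39.8 UPM and endothelial markers to 32.6 and 47.7 UPM, nearly all of it CD68 and PECAM1, each the only measured gene of its list of 4. S and G2M cells made up 32.3% of 3099 control cells and 12.4% of 1311 4B4 cells with at least 17000 UMIs. Cells in which the nuclear RNA MALAT1 took over 2% of UMIs made up 24.7% of control cells and 31.2% of 4B4 cells.

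Most enzymes of the route had ratios (4B4 over control) slightly below 1, and only the exporter ABCA1 differed by as much as 1.5-fold. Of the 28 members 25 were measured, and MVK, TM7SF2 and INSIG1 stayed under 5 UPM in both libraries. ABCA1 was higher, against a background of 2.1% of 11359 measured genes, and 0 members were lower, against a background of 5.82%. At a looser ratio of 5 to 4 the same gene was higher (background 8.94%), and ACAT2, MVD, FDPS, SQLE, SREBF2 and STARD4 were lower (background 13.3%). Summed over the 19 synthesis enzymes the level was 454 UPM in control cells and 393 UPM in 4B4 cells, a log2 ratio of -0.21 (-0.23 to -0.19). Of the 17 measured enzymes 14 had a ratio below 1, 13 of them with the counting interval below 1, and 2 had an interval above 1. Over all measured genes 51.9% had a ratio below 1 and 38.3% an interval below 1. The median log2 ratio was -0.19 over the measured enzymes and -0.0089 over all measured genes. With each cell weighing the same, so that shallow barcodes count as much as deep ones, the enzymes' median was 0.0899 (all genes 0.062). Under that weighting HMGCS1, IDI1, SQLE, LSS, NSDHL and SC5D turned to ratios above 1. Without barcodes under 10000 UMIs the equally weighted median was -0.11. Enzymes of 1 route in 1 pair of libraries are not independent of each other, and the share of S and G2M cells differed between the libraries.

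**Figure D1:**
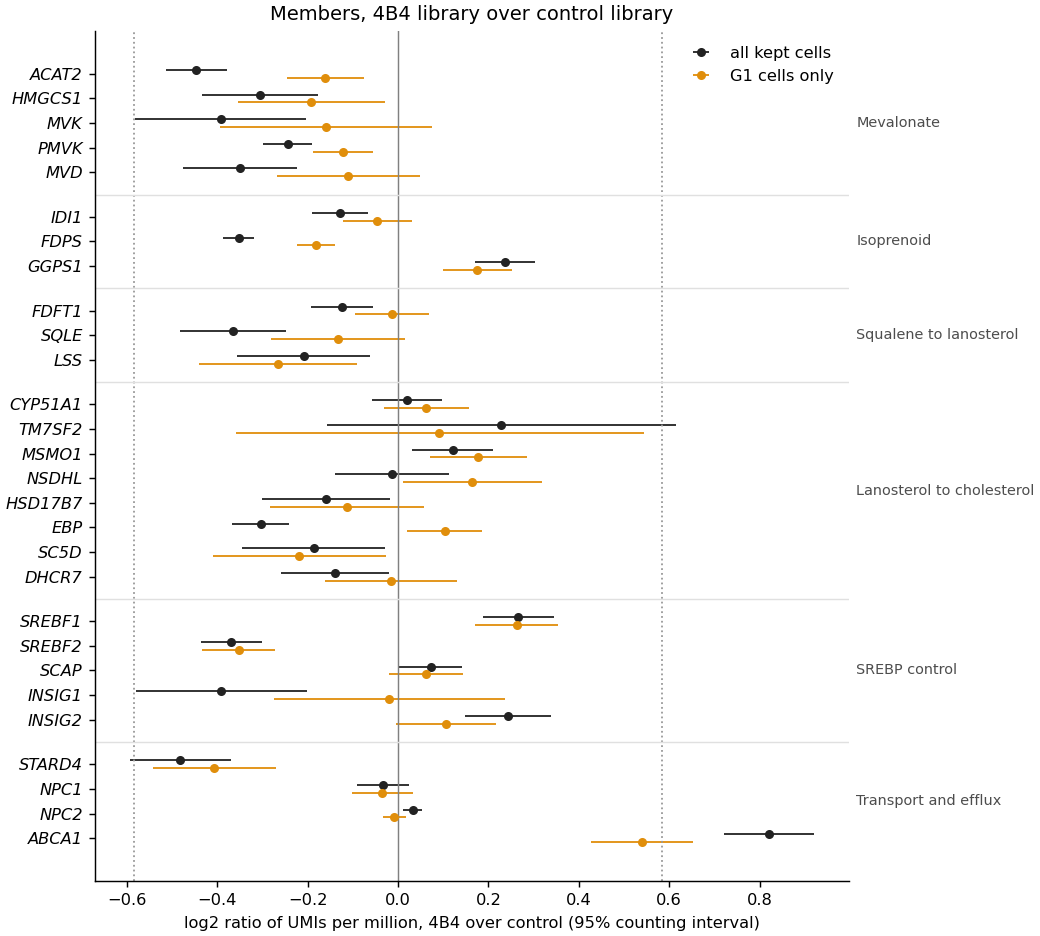
Log2 ratio of UPM, 4B4 library over control library, for each of the 28 members by role, over all kept cells (black) and over G1 cells alone (orange). Points are ratios, lines are 95% counting intervals and dotted lines mark a ratio of 1.5 in each direction. MVK, TM7SF2 and INSIG1 lie under 5 UPM. ABCA1 at 0.82 is the only point past a dotted line, and at 0.54 in G1 cells it lies inside.

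The first steps, which make mevalonate and prepare it for use, had ratios below 1 (4B4 over control) in all 5 genes, none as far as 1.5-fold. ACAT2, the cytosolic thiolase that joins acetyl-CoA units, was at 35.8 UPM (34.7 to 36.8) in control cells and 26.2 UPM (25.3 to 27.2) in 4B4 cells, a log2 ratio of -0.45. HMGCS1, which makes HMG-CoA, was at 9.07 and 7.34 UPM, a log2 ratio of -0.31 (-0.43 to -0.18). The mevalonate kinase MVK was counted at 4.44 and 3.38 UPM, under the floor. PMVK, the kinase after it, was at 49.3 and 41.6 UPM, a log2 ratio of -0.24. MVD, which decarboxylates the product to isopentenyl diphosphate, was at 9.68 and 7.60 UPM, a log2 ratio of -0.35. The 4 measured genes had a median log2 ratio of -0.33, and their counting intervals all lay below 0.

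The isoprenoid steps did not move as a block. FDPS, which builds farnesyl diphosphate for the sterol and prenyl branches, was at 126 UPM (124 to 128) in control cells and 99.0 UPM (97.2 to 100.8) in 4B4 cells, a log2 ratio of -0.35 (-0.39 to -0.32). IDI1, the isomerase that feeds it, was at 35.8 and 32.7 UPM, a log2 ratio of -0.13. GGPS1, which makes geranylgeranyl diphosphate and so leads away from sterols, stood on the other side of 0, with 27.9 UPM (27.0 to 28.8) in control cells and 32.8 UPM (31.8 to 33.9) in 4B4 cells and a log2 ratio of 0.24. Exons of GGPS1 overlap those of TBCE on the same strand, and FDPS has pseudogene copies, so both levels are uncertain where reads could be shared.

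From squalene to lanosterol the 3 genes had ratios below 1, none as far as 1.5-fold, and those of SQLE and LSS turned with each cell weighing the same. Squalene synthase, FDFT1, was at 30.3 UPM in control cells and 27.8 UPM in 4B4 cells, a log2 ratio of -0.12. SQLE, the squalene epoxidase, was at 11.3 and 8.75 UPM, a log2 ratio of -0.37 (-0.48 to -0.25). A single 4B4 cell held 46 of the 1019 SQLE UMIs of its library. LSS, which closes the rings to lanosterol, was at 6.69 and 5.79 UPM, a log2 ratio of -0.21 (-0.36 to -0.06).

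The late sterol steps were mixed, with intervals below 0, spanning it and above it. EBP, the sterol isomerase, was at 37.2 UPM (36.1 to 38.3) in control cells and 30.1 UPM (29.1 to 31.1) in 4B4 cells, a log2 ratio of -0.30. SC5D, a desaturase, was at 5.74 and 5.04 UPM, HSD17B7, a ketosteroid reductase, at 7.19 and 6.43 UPM, and DHCR7, the reductase that acts on 7-dehydrocholesterol, at 9.88 and 8.97 UPM. Their log2 ratios were -0.19, -0.16 and -0.14, with intervals below 0. CYP51A1, the lanosterol demethylase, was at 21.8 and 22.1 UPM, and NSDHL, the decarboxylating dehydrogenase that removes methyl groups, at 8.54 and 8.47 UPM. Intervals of these 2 genes spanned 0. MSMO1, the methyl oxidase that works with NSDHL, was at 16.2 and 17.6 UPM, a log2 ratio of 0.12 (0.03 to 0.21). TM7SF2, a sterol reductase, gave 111 and 119 UMIs, or 0.873 and 1.02 UPM, too few to read.

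Among the regulators the genes of the SREBP factors stood on opposite sides. SREBF2, which encodes the factor best known for driving cholesterol synthesis, was at 33.1 UPM (32.1 to 34.1) in control cells and 25.6 UPM (24.7 to 26.5) in 4B4 cells, a log2 ratio of -0.37 (-0.44 to -0.30). SREBF1, whose products are best known for driving fatty acid synthesis, was at 20.1 UPM (19.3 to 20.9) and 24.1 UPM (23.2 to 25.03), a log2 ratio of 0.27. INSIG2 was at 13.8 and 16.4 UPM, a log2 ratio of 0.24. INSIG1, itself a well-known SREBP target, was at 4.43 and 3.38 UPM, under the floor. SCAP was at 26.6 and 27.96 UPM, a log2 ratio of 0.07. In cells of 20000 to 60000 UMIs the log2 ratio of SREBF1 was -0.03 and that of SCAP was -0.03, while with each cell thinned to 17000 UMIs they were 0.19 and 0.24. SREBF2 kept its direction under each of the 14 alternative settings run for single ratios, from -0.60 to -0.24.

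Of the transport genes ABCA1 was higher in 4B4 cells, and STARD4 had a ratio below 1 that passed 5 to 4 but not 1.5-fold. ABCA1, which loads cholesterol onto lipoproteins outside the cell, was at 10.4 UPM (9.89 to 11.0) in control cells and 18.5 UPM (17.7 to 19.2) in 4B4 cells, a log2 ratio of 0.82 (0.72 to 0.92). The fullest 1% of cells held 13.7% of its UMIs in control cells and 12.9% in 4B4 cells, and the log2 ratio without those cells was 0.88. Its ratio stayed at or above 1.5 in 13 of 14 alternative settings, and over G1 cells it was 1.45, with levels of 12.8 and 18.7 UPM. STARD4, a cytosolic sterol carrier, was at 12.9 UPM (12.3 to 13.6) and 9.27 UPM (8.72 to 9.84), a log2 ratio of -0.48 (-0.59 to -0.37). Over all kept cells the lysosomal exporters hardly differed. NPC1 was at 41.6 and 40.6 UPM, with an interval that spanned 0, and NPC2 at 271 and 277 UPM, a log2 ratio of 0.03 whose direction turned under 7 of the 14 settings.

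Shares of cells with a UMI were compared at equal depth. With each cell thinned to 17000 UMIs, which left out 303 control and 74 4B4 cells as too shallow, ABCA1 had a UMI in 14.9% (13.7% to 16.2%) of the control and 21.0% (18.8% to 23.3%) of the 4B4 cells. Without thinning these shares were 25.9% and 46.9%. ACAT2 was seen in 41.1% and 34.3% of thinned cells, FDPS in 83.5% and 78.0%, EBP in 43.0% and 36.9%, and SREBF2 in 38.1% and 30.6%. Without thinning ACAT2 was seen in 61.3% and 74.1%, FDPS in 93.5% and 94.8%, EBP in 61.6% and 77.3%, and SREBF2 in 56.5% and 66.5%. GGPS1 was seen in 38.0% of control and 44.2% of 4B4 thinned cells (59.7% and 80.4% without thinning). These 6 genes had shares on the same side as their levels. For IDI1, HSD17B7, NPC2 and TM7SF2 share and level stood on opposite sides, with thinned shares of 41.9% and 42.0% for IDI1 (63.1% and 82.2% without thinning) and of 11.4% and 12.2% for HSD17B7 (22.4% and 37.8%). Shares without thinning compare cells of unequal depth. RNA freed from broken cells can put UMIs of a gene into any droplet, and with a single line there is no other cell type to measure that background in. Summed over the 19 enzymes, a thinned cell held a median of 7 UMIs in either library, with means of 7.66 (control) and 6.90 (4B4). Only 6 of 3099 control cells and 5 of 1311 4B4 cells held none.

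Within G1 cells the libraries were closer. Over 2099 control and 1148 4B4 G1 cells the enzymes summed to 394 and 378 UPM, a log2 ratio of -0.059 (-0.081 to -0.037). Gene by gene, 12 of 17 measured enzymes had log2 ratios below 0. Their median was -0.11, and that of all measured genes was -0.0014. In this comparison 0 members were higher (background 1.59%) and 0 were lower (background 3.55%). ACAT2 was at 26.5 and 23.7 UPM, a log2 ratio of -0.16, and FDPS at 106 and 93.8 UPM, a log2 ratio of -0.18. EBP stood on the other side of 0, at 26.0 UPM in control and 27.9 UPM in 4B4 cells, a log2 ratio of 0.10 (0.02 to 0.19). SREBF2 and STARD4 were nearly as far apart as over all cells, with log2 ratios of -0.35 and -0.41. In S cells the enzymes summed to 530 and 432 UPM and in G2M cells to 563 and 496 UPM, log2 ratios of -0.29 and -0.18.

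Levels of the members were also compared between cycling states inside each library. Phases were called at equal depth from 43 S genes and 54 G2M genes, none of them a member, and S and G2M cells were set against G1 cells of the same library. In the control library 7 of 27 measured members were higher in cycling cells (background 12.4%) and 1 was lower (background 6%). Of the 7, MVK (3.67 UPM in G1 and 5.80 UPM in cycling cells) and INSIG1 (2.95 and 6.57 UPM) reached the floor only in cycling cells. That leaves 5, and the background was not reduced in the same way. In the 4B4 library, with only 163 cycling cells, 2 of 25 were higher (background 11.7%) and 0 were lower (background 2%). The measured enzymes had median log2 ratios (cycling over G1) of 0.39 among control and 0.26 among 4B4 cells, where all measured genes had 0.027 and 0.083. At 5 to 4 the counts were 13 higher (background 22.7%) and 2 lower (16.8%) among control cells. Among 4B4 cells they were 8 higher (24.4%) and 1 lower (8.17%). Of these, MVK and INSIG1 (control) and SC5D (4B4, 4.76 UPM in G1 and 6.33 UPM in cycling cells) reached the floor only in cycling cells. The counts and backgrounds at 5 to 4, and the medians above, were not reduced for such genes. Of the 25 members measured in both libraries the counting interval lay above 0 in both for 13 and below 0 in both for 3, GGPS1, NPC2 and ABCA1. Over the 11232 genes measured in both these shares were 32.6% and 17.6%, against 52.0% and 12.0% of the members. Cells of both states come from 1 culture and are not replicates. In the control library MALAT1-rich cells made up 32.8% of G1, 12.1% of S and 3.15% of G2M cells, and in the 4B4 library 30.7%, 24.0% and 13.6%. Median depth was 31651 UMIs in G1 and 41332 UMIs in cycling control cells, and 69470 and 86509 UMIs in those of the 4B4 library. The part of depth in these ratios was not tested.

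**Figure D2:**
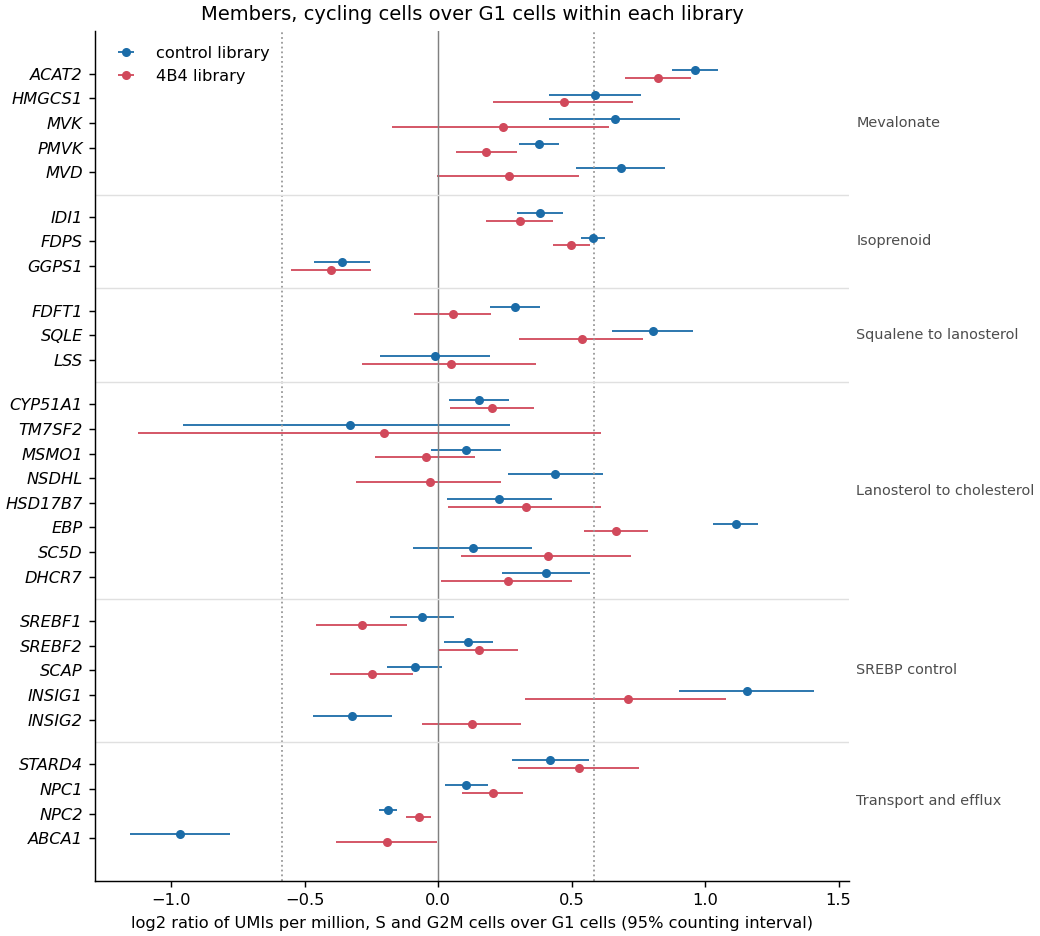
Log2 ratio of UPM, S and G2M cells over G1 cells, for each of the 28 members in the control library (blue) and the 4B4 library (red), with 95% counting intervals. Dotted lines mark a ratio of 1.5 in each direction. ACAT2, EBP and INSIG1 lie past the upper line in both libraries, and ABCA1 lies past the lower line only in the control library. INSIG1 and MVK reached 5 UPM only in cycling cells of the control library and stayed under it in the 4B4 library. TM7SF2 lies under 5 UPM in both.

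ACAT2 and EBP were higher in cycling cells of both libraries. ACAT2 was at 26.5 UPM in G1, 44.8 in S and 54.7 in G2M cells of the control library, and at 23.7, 34.7 and 46.1 UPM in the 4B4 library, log2 ratios (cycling over G1) of 0.96 and 0.82. EBP was at 26.0, 52.0 and 58.3 UPM in control cells and at 27.9, 45.2 and 43.8 UPM in 4B4 cells, log2 ratios of 1.12 and 0.67. The difference between these 2 ratios of EBP was not tested.

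HMGCS1, MVK, MVD, SQLE and INSIG1 passed the size rule in the control library, MVK and INSIG1 with the floor reached only in cycling cells. Their log2 ratios were 0.59, 0.66, 0.68, 0.80 and 1.16 there, and 0.47, 0.24, 0.26, 0.54 and 0.71 in the 4B4 library, where MVK and INSIG1 stayed under 5 UPM. INSIG1 was at 2.95 UPM in G1, 6.19 in S and 6.75 in G2M cells of the control library. FDPS came close in both, at 106, 157 and 160 UPM in control cells and 93.8, 125.1 and 137 UPM in 4B4 cells, log2 ratios of 0.58 and 0.50. LSS did not follow, at 6.71 UPM in G1 and 6.66 UPM in cycling control cells, nor did MSMO1, at 15.6 and 16.8 UPM, with intervals that spanned 0 in both libraries.

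GGPS1 and ABCA1 had ratios below 1, and only ABCA1 in the control library passed the size rule. GGPS1 was at 30.1 UPM in G1, 23.7 in S and 23.3 in G2M cells of the control library and at 34.0, 25.4 and 26.0 UPM in the 4B4 library, log2 ratios of -0.36 and -0.40. ABCA1 was at 12.8 UPM in G1, 7.21 in S and 6.28 in G2M cells of the control library, a log2 ratio of -0.97 (-1.16 to -0.78). In the 4B4 library it was at 18.7, 25.6 and 11.1 UPM, a log2 ratio of -0.19 (-0.38 to -0.0029). The S value there rests on 148 UMIs in 75 cells, of which 1 cell held 17, and is 22.9 UPM without that cell. In G2M 1 cell held 21 of 113 UMIs, and the level without it is 9.26 UPM. In each of the 3 phases the ABCA1 level of 4B4 cells lay above that of control cells, though in G1 by less than the size rule asks. INSIG2 had a ratio below 1 in the control library, short of the size rule (log2 ratio -0.32, -0.47 to -0.17), and an interval spanning 0 in the 4B4 library (0.13, -0.06 to 0.31).

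**Figure D3:**
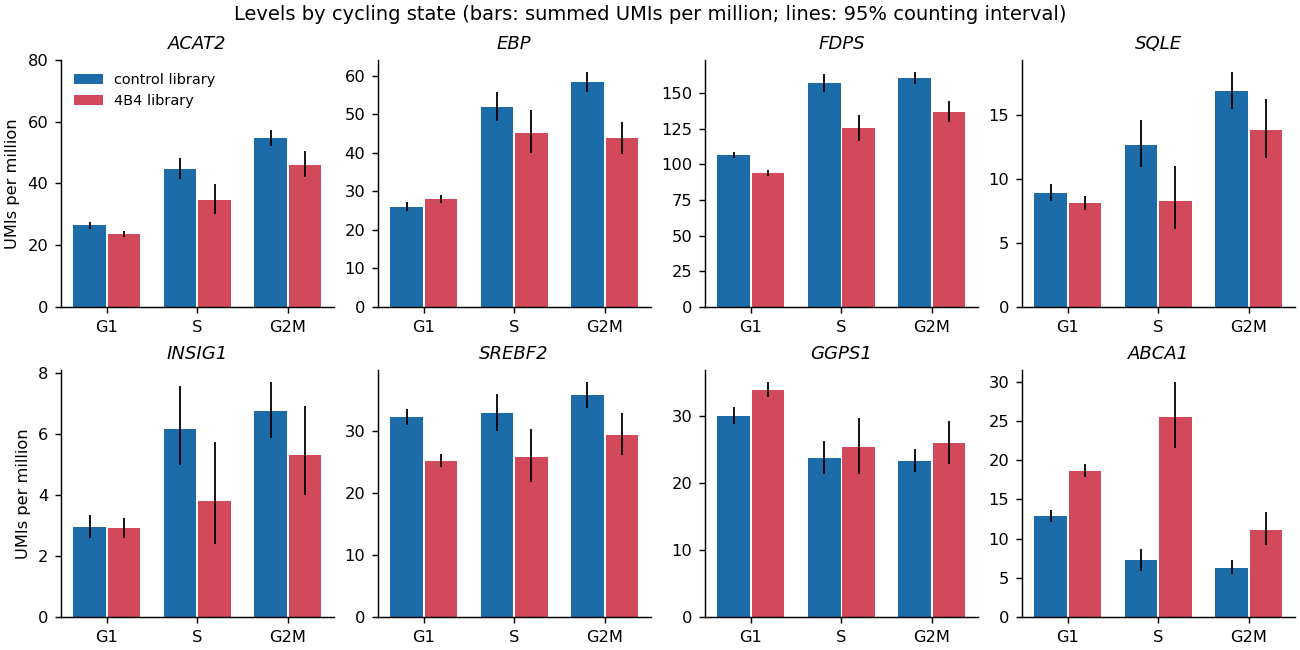
Levels in UPM of 8 members in G1, S and G2M cells of the control library (blue) and the 4B4 library (red). Bars are summed UPM and lines are 95% counting intervals, and each panel has its own axis starting at 0. The bars of ACAT2, EBP and FDPS are taller in S and G2M than in G1 cells of both libraries, those of GGPS1 are shorter, and ABCA1 in the 4B4 library has its tallest bar in S, where it rests on 75 cells.

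With MALAT1-rich cells left out, ACAT2, HMGCS1, MVD, SQLE, EBP and INSIG1 were higher in cycling cells of the control library (background 14.3%) and ABCA1 was lower (background 3.75%). Over control cells that are not MALAT1-rich INSIG1 was at 4.86 UPM, with a log2 ratio (cycling over G1) of 0.99. It thus reached the floor only in cycling cells, and the background was not reduced for such genes. With MALAT1-rich cells kept, INSIG1 was at 2.95 UPM in control G1 cells, also under the floor. In the 4B4 library ACAT2, HMGCS1, SQLE, EBP and STARD4 were higher (background 18.3%) and 0 members lower (background 1.76%). Against the other cells of the control library MALAT1-rich cells had 1 of 25 measured members higher, ABCA1 (17.4 against 8.48 UPM, background 22.8%). ACAT2 (23.7 against 39.1 UPM) and EBP (20.5 against 41.9 UPM) were the 2 lower (background 6.39%). In MALAT1-rich cells of the 4B4 library 6 of 25 were higher, HMGCS1, LSS, SREBF2, INSIG2, NPC1 and ABCA1 (background 42.2%), and NPC2 was lower (background 10%). SREBF2 was at 41.8 UPM in them and 20.5 UPM in the other 4B4 cells, where the control library had 40.3 and 31.0 UPM. ABCA1 was at 27.4 and 15.6 UPM in the same 4B4 cells, above the control values in both. The log2 ratio of SREBF2 (4B4 over control) was 0.05 (-0.07 to 0.17) in MALAT1-rich cells and -0.60 (-0.69 to -0.52) in the others. For STARD4 these values were -0.06 and -0.61, and for the summed enzymes -0.035 and -0.25. For NPC1 they were 0.45 and -0.27, and for NPC2 -0.31 and 0.12, on opposite sides of 0. The part of MALAT1-rich cells in the differences between the libraries was not tested.

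In a small set of shallow barcodes HMGCS1, IDI1 and LSS stood well above their levels in deeper cells, as did many other genes. Barcodes under 10000 UMIs, a bound chosen after seeing the data, numbered 51 in the control library (1.499% of kept barcodes, 0.221% of UMIs) and 59 in the 4B4 library (4.26% and 0.249%). In the 4B4 library 12 of 28 members were higher in them than in deeper cells (background 30.5%) and 2 were lower (background 8.96%). Of the 12, MVK (4 UMIs, 13.8 against 3.36 UPM), TM7SF2 (4 UMIs, 13.8 against 0.99 UPM), SC5D (9 UMIs, 31.1 against 4.98 UPM) and INSIG1 reached the floor only in the shallow barcodes. That leaves 8, and the background was not reduced in the same way. In the control library 6 of 27 were higher (background 15.7%) and 0 lower (background 3.16%). Of these 6, INSIG1 again reached the floor only in the shallow barcodes, which leaves 5. Over all measured genes the median log2 ratio (shallow over deeper) was 0.51 in the 4B4 library and 0.19 in the control library. Over the measured enzymes it was 1.03 and 0.63. All these medians keep genes that reached the floor only in the shallow barcodes, and were not recomputed without them. Among the enzymes these genes were MVK, TM7SF2 and SC5D in the 4B4 library (log2 ratios 2.04, 3.80 and 2.64). In the control library it was MVK (0.68). HMGCS1 was at 121 UPM (84.1 to 168) in the shallow 4B4 barcodes, from 35 UMIs in 17 of them, and at 7.06 UPM in deeper 4B4 cells. IDI1 was at 359 UPM (293 to 435), from 104 UMIs in 37 barcodes, against 31.9 UPM. INSIG1 was at 82.8 and 3.18 UPM and LSS at 72.5 and 5.62 UPM. FDPS ran the other way, at 44.9 and 99.1 UPM, as did NPC2, at 110.4 and 277 UPM.

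The shallow control barcodes shared part of this. INSIG1 was at 49.9 UPM, from 14 UMIs in 5 barcodes, against 4.33 UPM in deeper cells. IDI1 was at 124.6 and 35.6 UPM and LSS at 32.1 and 6.63 UPM, while FDPS was at 146 and 126 UPM. Shallow barcodes had median mitochondrial shares of 6.85% in the control and 3.60% in the 4B4 library, against 9.18% and 7.74% in deeper cells. MALAT1 took a median of 0.354% of their UMIs in control cells and 5.59% in 4B4 cells, against 0.802% and 0.798%. The part of mitochondrial and MALAT1 shares in these levels was not tested. ABCA1 was not higher in them, but the 25 4B4 barcodes of 10000 to 20000 UMIs held 40 ABCA1 UMIs, or 103 UPM (73.6 to 140), against 10.5 UPM in 482 control barcodes of like depth.

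**Figure D4:**
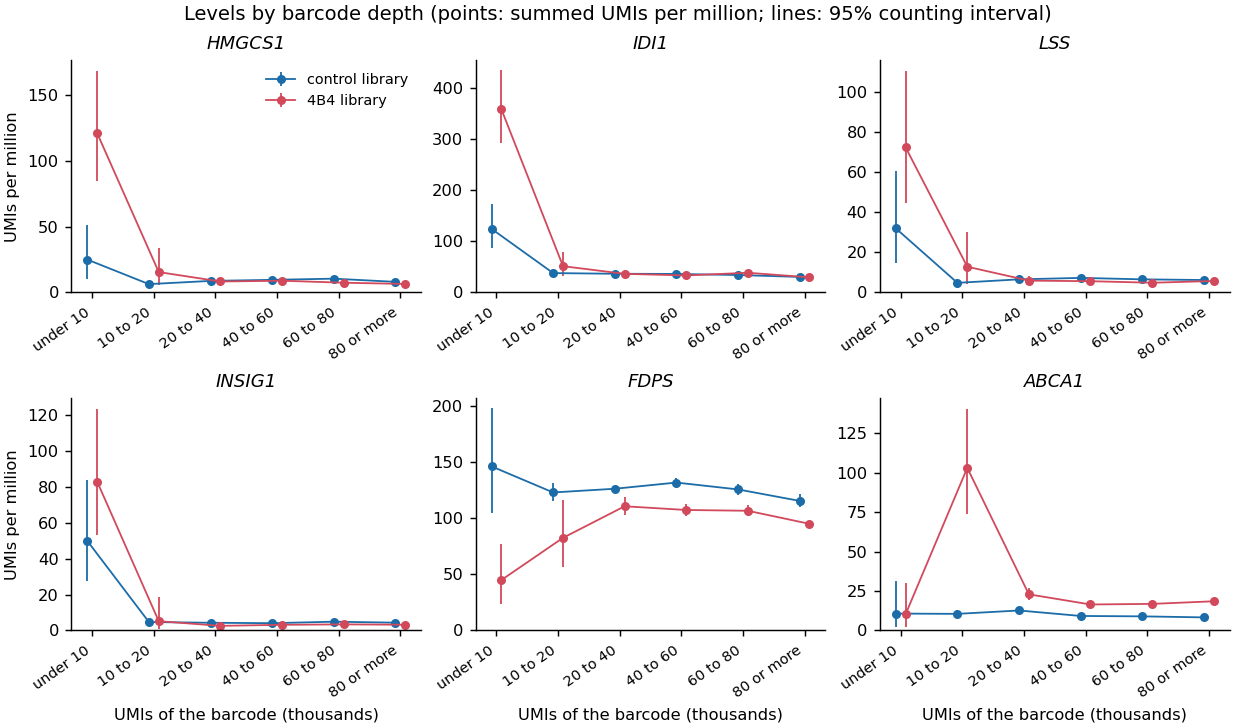
Levels in UPM of 6 members by the UMIs of the barcode, given in units of 1000, in the control library (blue) and the 4B4 library (red). Points are summed UPM, lines through them are 95% counting intervals, and each panel has its own axis starting at 0. HMGCS1, IDI1, LSS and INSIG1 stand highest under 10000 UMIs, FDPS is lowest there in the 4B4 library, and ABCA1 in the 4B4 library is highest between 10000 and 20000 UMIs, in 25 barcodes.

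Promoter sequence is shown for the 3 members whose window holds a form of the SREBP site, INSIG1, EBP and SREBF2. The RefSeq table (build GRCh38.p14), with windows of 300 bases of which 50 follow the start site, held 34 windows of 25 members and none of ACAT2, FDFT1 and SQLE. Both strands were searched. The sterol regulatory element TCACNCCAC was found in 1 of 25 members (SREBF2) and 1.39% of 27305 genes, and the E-box form TCACNTGA in 2 (INSIG1 and EBP) and 4.66%. The NF-Y box CCAAT was in 18 of 25 members and 39.7% of genes, and the GC box GGGCGG in 24 of 25 and 48.3%. The 250 bases before the RefSeq start site follow, each written 5′ to 3′ on the gene's strand. The SREBP site form and each CCAAT, on either strand, are in capitals. They lie on the plus strand at chr7:155297628-155297877 (INSIG1), chrX:48521558-48521807 (EBP) and chr22:41832855-41833104 (SREBF2).
INSIG1: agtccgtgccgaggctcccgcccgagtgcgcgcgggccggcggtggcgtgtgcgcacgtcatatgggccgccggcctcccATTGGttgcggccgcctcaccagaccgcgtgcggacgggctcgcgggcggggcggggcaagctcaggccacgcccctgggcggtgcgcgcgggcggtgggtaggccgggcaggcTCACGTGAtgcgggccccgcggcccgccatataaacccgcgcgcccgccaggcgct
EBP: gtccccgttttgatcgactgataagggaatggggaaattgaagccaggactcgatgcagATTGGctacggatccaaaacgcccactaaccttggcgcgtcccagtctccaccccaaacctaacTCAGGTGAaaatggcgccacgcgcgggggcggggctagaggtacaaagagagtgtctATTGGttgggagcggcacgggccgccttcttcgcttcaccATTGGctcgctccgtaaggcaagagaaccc
SREBF2: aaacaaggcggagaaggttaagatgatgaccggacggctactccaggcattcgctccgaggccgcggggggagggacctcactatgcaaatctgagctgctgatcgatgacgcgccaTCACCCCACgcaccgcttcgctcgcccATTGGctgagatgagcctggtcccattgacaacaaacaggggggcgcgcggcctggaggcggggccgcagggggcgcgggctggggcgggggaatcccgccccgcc
The site form starts 56 bases before the start site in INSIG1, where it reads the same on both strands, 127 bases before it in EBP, on the minus strand, and 133 bases before it in SREBF2. Such matches describe letters and are not evidence of binding.

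On GRCh38, with positions from GENCODE release 29, ABCA1 (ENSG00000165029) lies on chromosome 9 from 104781002 to 104928237 and STARD4 (ENSG00000164211) on chromosome 5 from 111496033 to 111512590. ACAT2 (ENSG00000120437) lies on chromosome 6 from 159760328 to 159779055, where its exons overlap those of TCP1 and SOD2 on the opposite strand. EBP (ENSG00000147155) lies on chromosome X from 48521158 to 48528716 and FDPS (ENSG00000160752) on chromosome 1 from 155308748 to 155320666. Exons of 4 members, GGPS1, CYP51A1, TM7SF2 and NPC2, overlap another gene on the same strand, and those of 14 on the opposite strand. Pseudogene copies, searched by gene name only, were found for 3, FDPS, CYP51A1 and HSD17B7. Levels of all these genes are uncertain where reads could be shared. Counts are per gene, with no exon or UTR attached to them, and how strand was used in counting is not given in the sources used here.

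Genes that border the route were described from 4 further lists. The prenyl and dolichol branch, which uses the isoprenoids for protein anchors and glycosylation, had 13 of 13 genes measured, 0 higher and 0 lower, with a median log2 ratio of -0.0078. Its widest ratios were those of RCE1 (0.41), PDSS1 (-0.40), RABGGTA (0.35) and ICMT (-0.33). SREBP processing and sterol-regulated degradation had 9 of 9 measured, 0 higher and 0 lower, and a median of -0.032. MBTPS1, the protease that makes the first cut in SREBPs, was at 54.4 UPM in control cells and 67.4 UPM in 4B4 cells, a log2 ratio of 0.31. Sterol transport, storage and LXR genes had 21 of 23 measured, 0 higher and 0 lower, and a median of 0.036, with the LXR receptor genes NR1H3 at 0.44 and NR1H2 at 0.31, LRP8 at 0.42 and NCEH1 at -0.33. Fatty acid genes driven by SREBPs, listed together with TMEM97, had 14 of 15 measured, 2 higher and 1 lower, and a median of -0.10. GPAM, which starts glycerolipid synthesis, was at 5.56 and 11.0 UPM, a log2 ratio of 0.98. ME1, the cytosolic malic enzyme that supplies NADPH, was at 85.2 and 159 UPM, a log2 ratio of 0.90. FADS1 was at 39.9 and 28.8 UPM, a log2 ratio of -0.47, short of 1.5-fold. TMEM97, a sterol-responsive membrane protein and the 1 gene lower, was at 10.9 and 5.09 UPM, a log2 ratio of -1.09.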

How the data were processed

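Cells were freed from gels with collagenase and trypsin and counted by 10x Genomics 3′ version 3 chemistry, per the labels. The deposited values are unnormalized UMI counts for every gene and barcode. Cell Ranger 7.1.0 is named in the file headers. GRCh38 and Seurat 5.0.1 are named, per the submitters' processing notes, without a stated role for the latter. The annotation and any further barcode filter were not given in the sources used here. The libraries shared 2 barcodes, and 0 among kept cells.

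Counts of kept cells were summed and divided by the library total. Intervals are Poisson for levels, conditional Clopper-Pearson for ratios and Clopper-Pearson for shares. Phases came from scanpy 1.11.5 on cells thinned to 17000 UMIs, with the bound at a score of 0. No doublet caller was run, and an alternative left out the 5% of cells with the most UMIs. Named genes were all 28 members and up to 4 measured genes with the widest ratios of each further list. Members and lists were chosen with earlier results of these data known. Alternatives were other filters, scalings (TMM from edgeR 4.0.16), thinning, depth ranges, floors, ratios and phase settings. Those on barcodes under 10000 UMIs and on MALAT1-rich cells in the cycling comparison were chosen after seeing the data. Some genes of the route are not reported here.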

Additional observations from a re-analysis of the deposited data

How the results depend on the processing

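No paired analysis was possible because each group holds 1 library. The count of members higher in the 4B4 library (1, ABCA1) was 3 with each cell weighing the same (HMGCS1, INSIG1 and ABCA1), 0 over G1 cells only and 0 with a floor of 20 UPM. The count of members lower (0) was 2 under a stricter filter (2000 or more genes, no more than 10% mitochondrial UMIs) (ACAT2 and INSIG1), 2 without MALAT1-rich cells (SREBF2 and STARD4) and 6 at a ratio of 5 to 4. The median log2 ratio of the enzymes turned from -0.19 to 0.0899 with each cell weighing the same, where the median of all genes was 0.062, and was -0.11 when barcodes under 10000 UMIs were also left out. For single genes that weighting gave 0.65 for HMGCS1, 0.66 for INSIG1 and 0.37 for IDI1. Of the 28 members 13 kept their direction under all 14 alternative settings for ratios and 15 turned under at least 1.

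In cycling cells of the control library the count higher (7) was 13 and the count lower (1) was 2 at a ratio of 5 to 4. Both counts higher include MVK and INSIG1, which reached the floor only in cycling cells. In the 4B4 library the count higher (2) was 4 under the stricter filter, 4 thinned to 17000 UMIs, 4 over cells of 20000 to 60000 UMIs, 8 at a ratio of 5 to 4, 5 without cells within 0.05 of the phase bound and 5 without MALAT1-rich cells. The 8 at 5 to 4 include SC5D, which reached the floor only in cycling cells. The count lower in the 4B4 library (0) was 1 thinned (GGPS1), 1 over 20000 to 60000 UMIs (CYP51A1) and 1 at a ratio of 5 to 4 (GGPS1). Beyond settings that change the cells, floor or ratio by construction, the cause was not tested. Low counts limit TM7SF2, MVK and INSIG1 most, and the number of cells (163) limits the 4B4 cycling values.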

Other observations

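Each member's thinned UMIs were set against the summed UMIs of the other synthesis enzymes in the same cell. Over 3099 control cells Pearson's r ran from -0.11 for ABCA1 to 0.17 for EBP, with 0.17 for FDPS, 0.15 for ACAT2 and 0.13 for MVD. Over 1311 4B4 cells it ran from -0.11 for ABCA1 to 0.18 for IDI1, with 0.17 for MSMO1, 0.16 for FDPS and 0.13 for INSIG1. Over the other 11334 measured genes the central 95% of values ran from -0.11 to 0.16 in control and from -0.15 to 0.14 in 4B4 cells. Such cells share a library and a depth, most hold few UMIs of any member, and the values are a description. The summed enzyme UMIs of thinned cells had medians of 6 in G1, 9 in S and 9 in G2M cells of the control library and of 6, 7 and 9 in the 4B4 library.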
